A study of Mus musculus with 12 samples.

Results

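The genes described here are 41 genes of the lysosome that were listed by name: 11 proteases, 11 glycosidases, 4 sulfatases, 8 lipid hydrolases with their activator proteins, 6 membrane proteins, and the transcription factor Tfeb. They were found by gene symbol among the 30165 genes of the OPC table and the 17918 genes of the neuron table. All 41 were present in both tables, and all passed the filter on low counts (10 or more normalized counts on average in the 6 libraries of a cell type), as did 17364 and 14352 genes in all.

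The libraries came from mouse cortex and fall into 4 groups of 3, each library holding pooled cells of 2 mice. The ctl mice are labelled WT, and no source states whether they carried Cre or floxed alleles. In the dKO mice, tamoxifen given on consecutive postnatal days activated CreERT2, driven from the NG2 locus, to delete floxed parts of Cacna1c and Cacna1d, which encode the calcium channel subunits Cav1.2 and Cav1.3. OPCs (oligodendrocyte precursor cells, the glia that give rise to myelinating oligodendrocytes) were captured on magnetic beads coated for CD140, NG2 and O4. Neurons were the cells left after removal of those that bound beads for O4, CD11b, CD31 or ACSA-2. NG2 is made by OPCs and by mural cells of vessels, so neurons carry the floxed alleles without the Cre driver being active in them. The labels do not give the age at collection.

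Lysosomes are acidic compartments in which proteins, sugar chains and lipids from endocytosis, phagocytosis and autophagy are broken down. Most of their soluble hydrolases are made in the endoplasmic reticulum, tagged with mannose 6-phosphate in the Golgi and carried to endosomes by receptors, while heavily glycosylated proteins such as LAMP1 line the membrane. Loss of single hydrolases causes storage diseases, many of which damage neurons or myelin, and TFEB induces many of these genes through promoter elements built on the letters CACGTG.

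The promoter sequences are shown first, for the 5 members whose windows hold the 8 letters TCACGTGA and for Lamp1, whose window holds 4 copies of CACGTG. RefSeq windows from 250 bases before to 50 bases after the start of the gene (mouse build GRCm38.p6) were at hand for 38 members, and none was listed for Ctsb, Ctsh and Asah1. The stretches below run 5′ to 3′ on the strand of the gene, with CACGTG in capitals and at most 12 bases on either side, up to the start of the gene. CACGTG reads the same on both strands.
Lamp1 (chr8:13159088-13159160, plus strand): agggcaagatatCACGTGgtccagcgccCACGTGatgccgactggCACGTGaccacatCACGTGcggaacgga
Mcoln1 (chr8:3500436-3500491, plus strand): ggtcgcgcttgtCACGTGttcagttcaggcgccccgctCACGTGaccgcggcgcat
Cln3 (chr7:126583340-126583397, minus strand): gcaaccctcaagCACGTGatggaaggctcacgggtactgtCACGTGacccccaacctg
Ctsd (chr7:142387908-142387937, minus strand): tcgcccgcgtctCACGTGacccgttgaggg
Ctsa (chr2:164833749-164833772, plus strand): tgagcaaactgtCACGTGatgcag
Gla (chrX:134601182-134601244, minus strand): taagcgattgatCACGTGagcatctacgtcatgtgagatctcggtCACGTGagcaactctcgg

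CACGTG was found in the windows of 14 of the 38 members (36.8%), and in 8.09% of the 27025 genes with a window. TCACGTG, searched on both strands and overlapping with the shorter motif, was in 12 (31.6%, against 4.29% of all windows). TCACGTGA was in 5 (13.2%, against 1.12%). The 4 copies at Lamp1 lie between 61 and 15 bases before the start, and Ctsd has a further copy 245 bases before it. These matches describe letters in a window, and binding was not measured.

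The libraries hold 14935963 to 19812274 counts in ctl OPCs, 15421057 to 19806674 in dKO OPCs, 15243151 to 16222285 in ctl neurons and 15052892 to 16344601 in dKO neurons. Cacna1c had 373 to 439 normalized counts in ctl and 252 to 337 in dKO OPCs. Its log2 fold change was -0.44 (adjusted p = 0.349, edgeR) and that of Cacna1d -0.55 (adjusted p = 0.531), from 191 to 255 counts in ctl and an overlapping 92.8 to 232 in dKO, and both totals include reads outside the floxed parts. The dKO 2 library of OPCs had 0 counts in 4 Y-linked genes and the other OPC libraries 4004 to 5766, while among neurons ctl 1 and dKO 1 had 5938 and 5384 and the others 4 to 61. Among neurons, dKO 1 stood farthest from the libraries of its own group, so results are also given without these libraries. Summed markers of mature oligodendrocytes were at 48846 to 84984 CPM (counts scaled to the size of the library) in the OPC libraries, those of ependyma and choroid plexus at 10219 to 23503, and those of OPCs at 1452 to 2763. In the neuron libraries those of endothelial cells were at 7732 to 18083, those of ependyma and choroid plexus at 4875 to 30217, and those of neurons at 772 to 1746. OPCs and neurons therefore name the captured and the unbound fraction here, both of which hold RNA of other cells, and each comparison is one of fractions. No marker of any list was at 0 throughout. In bulk samples, fewer cells of a type and less RNA per cell cannot be told apart.

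In ctl OPCs, lysosomal genes were among the well expressed genes. Their levels per length, given as the authors' FPKM, had a median percentile of 81.9 among the genes tested, and the lowest member, Pla2g15, stood at percentile 50.6. Together the members took 0.711% to 0.782% of all counts in the ctl and 0.745% to 0.791% in the dKO libraries. Psap, the precursor of the saposins that present sphingolipids to their hydrolases, was the highest at 770, 649 and 621 FPKM in the 3 ctl libraries. Lamp1, the abundant membrane glycoprotein, followed at 304, 398 and 360 FPKM, and Ctsd, the aspartic protease cathepsin D, at 192, 134 and 139 FPKM. The libraries of these genes did not overlap with one another, while the next, Ctsb (88.8 ± 4.02 FPKM, SD, n = 3), Lgmn (86.2 ± 6.28) and Scarb2 (77.9), had overlapping ranges.

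Within the classes, FPKM in ctl OPCs ran from 6.61 for Ctsc to 155 for Ctsd among proteases, from 4.11 for Manba to 39.4 for Gaa among glycosidases, and from 5.73 for Sgsh to 60.0 for Ids among sulfatases. Lipid hydrolases and activators ran from Pla2g15, the lowest of all members, and Ppt2 at 4.81 up to 680 for Psap, and membrane proteins from 4.66 for Cd68 to 354 for Lamp1. Tfeb was at 11.3 ± 1.85 FPKM (SD, n = 3). Galc, which degrades the myelin lipid galactosylceramide, was at 4.42 ± 0.341 FPKM, rank 39 of the 41 per length and rank 23 by CPM, which does not account for length.

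In the ctl neuron libraries, the order of the members differed from that in the OPC libraries. Levels are given here as the authors' TPM summed per gene, a unit that cannot be set directly against FPKM from the other table, so the comparison is one of ranks. Lamp1 was highest, at 626, 532 and 484 TPM, and Ctsd came next at 748, 427 and 412 TPM. The ranges of Lamp1 and Ctsd overlapped. They were followed by Ctsb at 410 ± 64.0 TPM, Ctsh, an aminopeptidase, at 395 ± 53.8, and Ctsl at 303 ± 61.2 (SD, n = 3). Psap had rank 7, with 219 ± 30.1 TPM, and Sgsh was lowest with 3.92 ± 1.46. The median percentile was 75.2, and the lowest 23.7.

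Some members held very different places in the OPC and the neuron libraries, which also hold RNA of other cells, as the marker levels above show. Ctsh had rank 29 in the OPC and 4 in the neuron libraries, and Ctsc, the dipeptidyl peptidase that activates serine proteases of immune cells, rank 32 and 10. The reverse was seen for Scarb2, the membrane receptor that carries glucocerebrosidase to lysosomes, with ranks 6 and 26, and for the iduronate sulfatase Ids, with 7 and 31. Ctss, a cathepsin that microglia make in quantity, had rank 6 in ctl neurons, where its level ran from 98.7 to 515 TPM. The summed level of 13 microglia markers was 1501, 304 and 708 CPM in the same libraries, in which Ctss had 515, 98.7 and 225 TPM. The part of other cells in these levels was not tested.

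**Figure D1:**
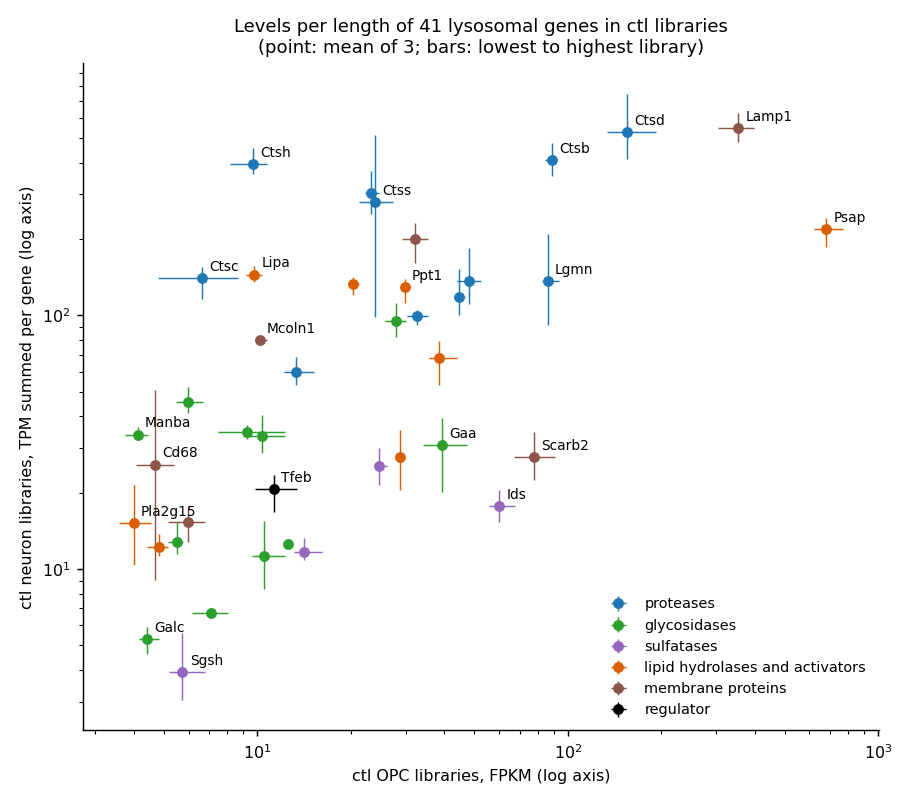
Mean level of each of the 41 lysosomal genes in the 3 ctl OPC libraries (FPKM, log axis, horizontal) and the 3 ctl neuron libraries (TPM, log axis, vertical), coloured by class; bars run from the lowest to the highest library. Psap (680 FPKM, 219 TPM), Lamp1 and Ctsd lie at the upper right, Ctsh (9.66 FPKM, 395 TPM) stands high in the neuron libraries, and the long vertical bars are Ctss and Cd68.

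The study set dKO against ctl OPCs. With the marker levels above, the comparison made here is of the captured fraction, and a difference in it cannot be assigned to OPCs. By edgeR's quasi-likelihood test, 0 of the 41 members had an adjusted p under 0.05, as against 0.00576% of all genes tested, which is 1 gene. With DESeq2, Ppt1 and Ctss passed (2 of 41, 4.88%, against 1.69% of all genes). With limma-voom 0 of 41 passed (against 0.00576%), with Ppt1 at an adjusted p of 0.123 and Ctss at 0.362. An unadjusted p under 0.05 was found for 6 members (14.6%, against 11.5% of all genes), 5 higher (12.2%, against 6.27%) and 1 lower (2.44%, against 5.27%) in dKO. By sign alone, 26 members were higher and 15 lower, 63.4% higher against 50.8% of all genes, and their median log2 fold change was 0.05 against 0.01. Without ctl 3 this direction was lost, with 21 of 41 lower (51.2%, against 50.2% of all genes) and a median of -0.0044. In 6 members the groups did not overlap (14.6%, against 17.0% of all genes), 5 above (12.2%, against 7.41%) and 1 below (2.44%, against 9.55%). As the libraries are pools of mice of 1 experiment, p-values measure the spread between these libraries.

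**Figure D2:**
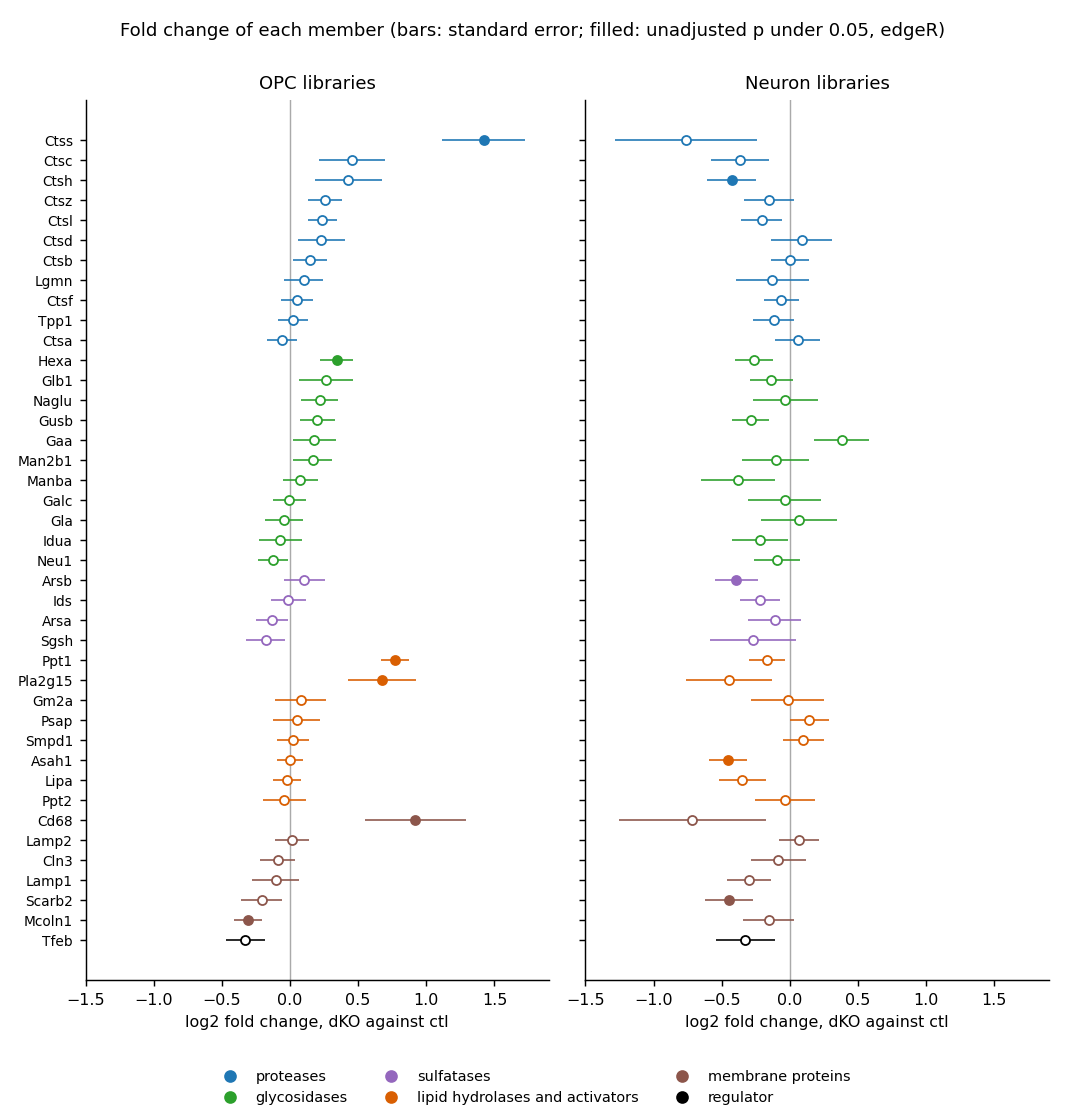
Log2 fold change of each member in OPCs (left) and neurons (right), dKO against ctl, with standard errors as bars and filled points at an unadjusted p under 0.05 (edgeR, n = 3 per group). In OPCs, 10 of the 11 proteases lie to the right of 0 and Ctss (1.42) is the farthest, while in neurons 33 of the 41 members lie to the left.

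Ppt1 encodes palmitoyl-protein thioesterase 1, which removes fatty acids from proteins and is lost in infantile neuronal ceroid lipofuscinosis. It had normalized counts of 1916, 1961 and 1901 in ctl and 3402, 3392 and 3041 in dKO OPCs. Each dKO library lay far above each ctl library, and the libraries within a group were close to each other. This is a fold of 1.70, or 0.77 on the log2 scale with a standard error of 0.10 (adjusted p = 0.117 by edgeR and 2.14e-08 by DESeq2). Its span overlaps by 129 bases with that of Cap1 on the other strand, and the log2 fold change of Cap1 was 0.06. In neurons, Ppt1 had 2858, 2907 and 2607 counts in ctl and 2442, 2294 and 2708 in dKO, and the groups overlapped.

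The other members with an unadjusted p under 0.05 in OPCs were more variable. Ctss had 567, 501 and 652 normalized counts in ctl and 1771, 796 and 2044 in dKO libraries. All dKO libraries were above all ctl libraries, but dKO 2 was closer to ctl than to the other dKO libraries. This is a fold of 2.68, or 1.42 on the log2 scale with a standard error of 0.31 (adjusted p = 0.246 by edgeR and 0.00221 by DESeq2). Cd68, a membrane glycoprotein of macrophages and microglia, had 120, 89.3 and 100 counts in ctl and 238, 88.9 and 261 in dKO. Here dKO 2 was the lowest of all 6 libraries and the groups overlapped (log2 fold change 0.92, standard error 0.37, adjusted p = 0.410).

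Pla2g15, a lysosomal phospholipase, had 206, 188 and 241 counts in ctl and 346, 220 and 452 in dKO OPCs. Again dKO 2 fell within the ctl range (log2 fold change 0.68, standard error 0.25, adjusted p = 0.375). Hexa, the alpha subunit of the hexosaminidase that degrades GM2 ganglioside, had 987, 1046 and 906 counts in ctl and 1373, 1082 and 1269 in dKO. The groups did not overlap, and dKO 2 lay just above the highest ctl library (log2 fold change 0.34, standard error 0.12, adjusted p = 0.358).

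Mcoln1 was the member lower in dKO OPCs at this threshold. It encodes TRPML1, the channel that lets calcium out of lysosomes. Its counts were 1344, 1409 and 1307 in ctl and 1177, 1082 and 1020 in dKO, so that the highest dKO library was under the lowest ctl library. This is a fold of 0.808, or -0.31 on the log2 scale with a standard error of 0.10 (adjusted p = 0.327).

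**Figure D3:**
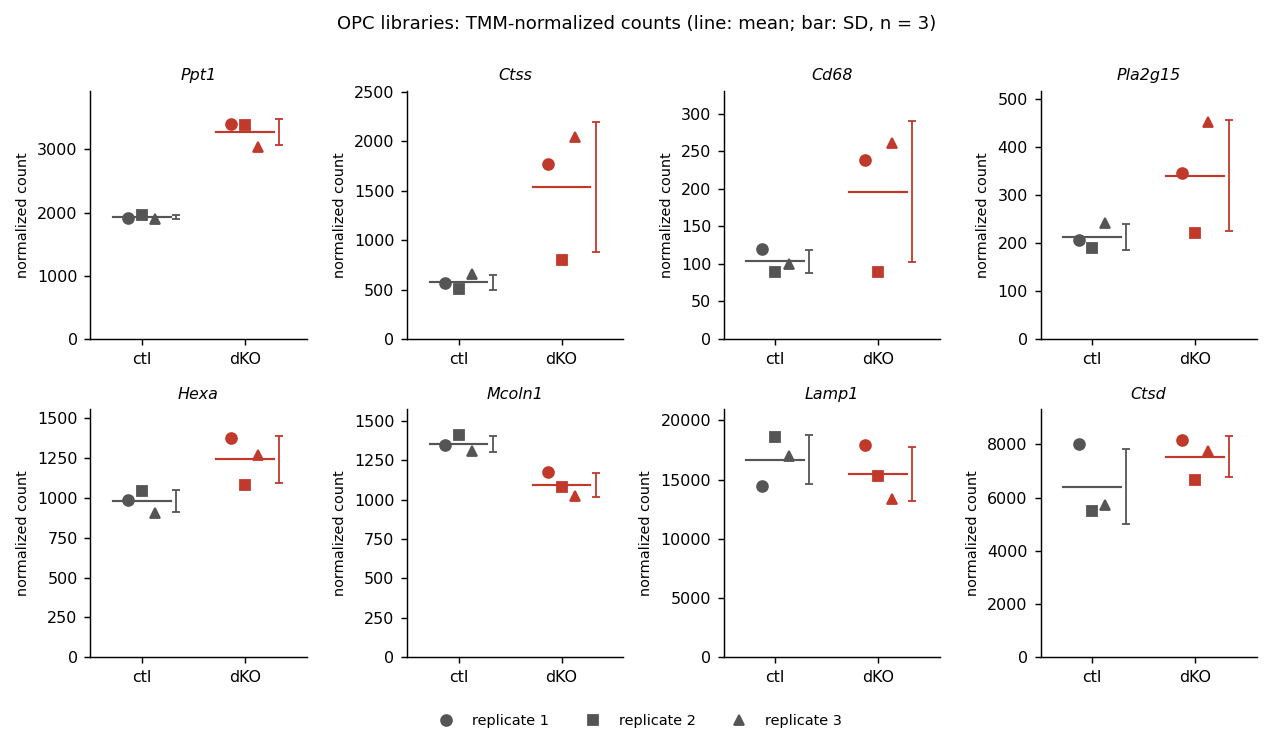
TMM-normalized counts of 8 members in the single OPC libraries (points; shape gives the replicate number, the line the mean and the bar the SD, n = 3; vertical axes start at 0). Ppt1 has 3041 to 3402 counts in dKO and 1901 to 1961 in ctl libraries; for Cd68 and Pla2g15 the dKO 2 library lies within or below the ctl range.

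Markers of other cells also differed between dKO and ctl OPC libraries. In dKO OPCs, 13 of 13 microglia markers had an unadjusted p under 0.05 and a higher level, with a median log2 fold change of 1.32. Their summed level was 242, 236 and 287 CPM in ctl and 745, 302 and 983 in dKO libraries, with dKO 2 next to the ctl libraries, as for Ctss, Cd68 and Pla2g15. At the same threshold, 3 of 5 markers of border macrophages were higher (19.5 CPM in the lowest ctl library, 27.9 to 42.3 in dKO), as were 7 of 8 of astrocytes (1068 to 1912 in ctl, 1826 to 5555 in dKO). Ppt1 had 3402, 3392 and 3041 counts in dKO 1, dKO 2 and dKO 3. In the same libraries the microglia markers were at 745, 302 and 983 CPM and the astrocyte markers at 1826, 5555 and 2838 CPM. The part of these and other cells in the levels of the members, Ppt1 among them, was not tested.

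In the other lists of the OPC libraries, 10 of 10 endothelial markers were higher by sign (median log2 fold change 0.29; 1329 to 1921 CPM in ctl, 1091 to 3007 in dKO), as were 11 of 12 neuron markers (0.37), 6 of 9 OPC markers (0.36) and 5 of 6 mural markers (0.39). By sign, 7 of 9 oligodendrocyte markers were lower (-0.43), and the 4 of ependyma and choroid plexus were split evenly. The latter summed to 23503, 10219 and 11556 CPM in ctl and 16225 to 17129 in dKO, highest in ctl 1. Among the ctl libraries, ctl 1 was also highest for Psap, Ctsd, Gaa, Ids and Glb1. It was lowest for Lamp1, Scarb2, Cln3, Tfeb and Idua. The part of ependyma and choroid plexus in these levels was not tested. At an unadjusted p under 0.05, 1 endothelial, 1 neuron and 1 OPC marker were higher and 2 oligodendrocyte markers were lower, with 0 in the mural and the ependyma and choroid plexus lists.

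**Figure D4:**
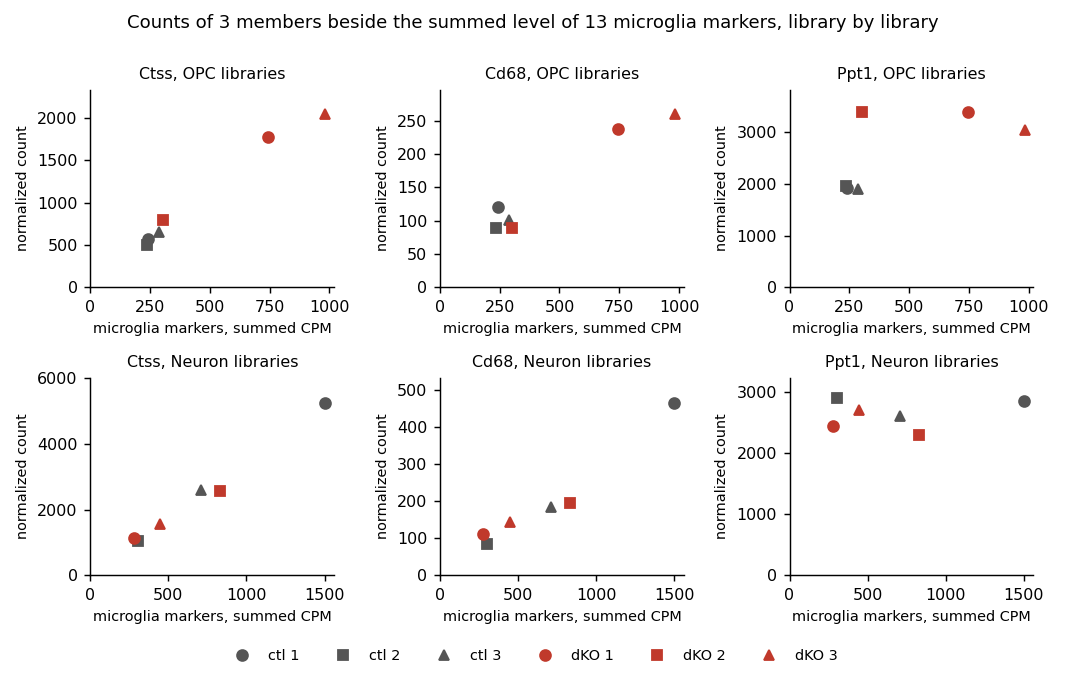
Normalized counts of Ctss, Cd68 and Ppt1 (vertical) beside the summed CPM of 13 microglia markers (horizontal) in the 6 OPC libraries (top) and the 6 neuron libraries (bottom); axes start at 0. Ctss and Cd68 are highest where the markers are highest (983 CPM in OPC dKO 3, 1501 CPM in neuron ctl 1), and Ppt1 has 3041 to 3402 counts in the dKO and 1901 to 1961 in the ctl OPC libraries.

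By class, the proteases had a median log2 fold change of 0.23 in OPCs, with 10 of 11 higher in dKO, and Ctsa, the protective protein of the galactosidase complex, as the exception at -0.06. Ctsd had 8020, 5482 and 5730 counts in ctl and 8161, 6668 and 7748 in dKO, and the groups overlapped (log2 fold change 0.23, standard error 0.17, adjusted p = 0.633). For Ctsb and Ctsl, as for Ctss, all dKO libraries were above all ctl libraries. Ctsl had 2834, 2521 and 2618 counts in ctl and 3000, 3220 and 3186 in dKO (log2 fold change 0.24, adjusted p = 0.435).

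The glycosidases had a median of 0.17, with 7 of 11 higher. Gaa, which degrades glycogen and was the highest of its class, had 4026, 2849 and 3092 counts in ctl and 3525, 4215 and 3549 in dKO, with overlapping groups. The sulfatases had a median of -0.07. Ids, the highest of them, had 6135, 5045 and 5001 counts in ctl and 5409, 5063 and 5572 in dKO OPCs (log2 fold change -0.01), and its sign turned when the low-count filter was dropped (0.01).

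Of the lipid class, 6 of 8 were higher with a median of 0.04. Psap had 37549, 31056 and 29978 counts in ctl and 33293, 35706 and 33026 in dKO, a log2 fold change of 0.05 (standard error 0.17). The dKO range of Psap lay within the ctl range. Asah1, the acid ceramidase, had a log2 fold change of 0.00 with a standard error of 0.09.

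The membrane proteins had a median of -0.10, with 4 of 6 lower. Lamp1 had 14458, 18577 and 16959 counts in ctl and 17897, 15262 and 13320 in dKO OPCs, which overlapped (log2 fold change -0.11, standard error 0.17, adjusted p = 0.851). Tfeb had 988, 1323 and 1072 counts in ctl and 1010, 906 and 780 in dKO. Of these dKO libraries, 1 lay within the ctl range and the others below it (log2 fold change -0.33, standard error 0.15, adjusted p = 0.441).

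Single libraries weighed on the counts in OPCs as well. Without dKO 2, 3 members had an adjusted p under 0.05 by edgeR (Ctss at 0.00393, Ppt1 at 0.0323 and Cd68 at 0.0327, where 199 of all genes did), and 8 were higher at an unadjusted p under 0.05 (19.5%, against 8.08% of all genes in the same fit). That count was 9 without ctl 1 (22.0%, against 5.26%), and 3 without ctl 2 or ctl 3 (7.32%, against 3.61% and 4.85%). Without dKO 1 or dKO 3 it was 2 (4.88%), below the 6.43% and 6.15% of all genes. Ppt1 and Ctss kept an unadjusted p under 0.05 with each library left out.

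In the neuron libraries, the same comparison is of the fraction left after bead removal in mice whose OPCs were targeted, and a difference in it cannot be assigned to neurons. None of the members had an adjusted p under 0.05 by edgeR, DESeq2 or limma-voom (0 of 41, against 0%, 0.613% and 0% of all genes). An unadjusted p under 0.05 was found by edgeR for 4 members (9.76%, against 9.00% of all genes), and all 4 were lower in dKO (against 4.04%), with 0 higher (against 4.96%). DESeq2 and limma-voom each gave 4 as well (against 10.7% and 8.86% of all genes). By sign alone, 33 members were lower and 8 higher, 19.5% higher against 51.1% of all genes, and the median log2 fold change was -0.15 against 0.01. In 9 members all dKO libraries lay below all ctl libraries (22.0%, against 7.82% of all genes), and in none above (0%, against 7.50%).

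Asah1, which splits ceramide into sphingosine and a fatty acid, had the smallest p. Its counts were 2610, 2559 and 2519 in ctl and 1613, 1922 and 2079 in dKO neurons. The ctl libraries were close together and all dKO libraries lay below them (log2 fold change -0.45, standard error 0.14, adjusted p = 0.521), a fold of 0.730. Asah1 kept an unadjusted p under 0.05 with each library left out.

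Scarb2 had 1415, 1084 and 1038 counts in ctl and 1015, 776 and 805 in dKO neurons, with replicate 1 the highest of each group and the groups just apart (log2 fold change -0.45, standard error 0.18, adjusted p = 0.522). The sulfatase Arsb, which degrades dermatan sulfate and was the highest of its class in neurons, had 1023, 876 and 834 counts in ctl and 686, 794 and 600 in dKO, again without overlap (log2 fold change -0.39, standard error 0.16, adjusted p = 0.525). Ctsh had 5754, 4789 and 5138 counts in ctl and 3173, 3714 and 4788 in dKO. The groups all but touched, and dKO 1 was the lowest (log2 fold change -0.43, standard error 0.18, adjusted p = 0.548).

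Lamp1, the highest member in neurons, had 11348, 9951 and 9967 counts in ctl and 7138, 9067 and 9200 in dKO. All dKO libraries were lower, dKO 1 by most (log2 fold change -0.30, standard error 0.16, adjusted p = 0.607). Ctsd had 11434, 6731 and 7157 counts in ctl and 10107, 8665 and 8123 in dKO. Here ctl held both the highest and the lowest libraries, and the log2 fold change of 0.09 (standard error 0.22) was -0.05 without ctl 2, -0.02 without ctl 3 and -0.01 without dKO 1.

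Hexa, the highest glycosidase, had 1783, 1496 and 1489 counts in ctl and 1195, 1436 and 1340 in dKO neurons, below ctl in every library (log2 fold change -0.26, standard error 0.14, adjusted p = 0.607). Psap had 5232, 5117 and 4555 counts in ctl and 6103, 5071 and 5267 in dKO, with overlapping groups (log2 fold change 0.14, standard error 0.14, adjusted p = 0.787). Tfeb had 422, 400 and 345 counts in ctl and 224, 371 and 336 in dKO. The dKO 1 library was the lowest (log2 fold change -0.33, standard error 0.22, adjusted p = 0.692).

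The lower values were spread over the classes in neurons. Of the proteases, 8 of 11 were lower (median log2 fold change -0.13), as were 9 of 11 glycosidases (-0.10), all 4 sulfatases (-0.24), 6 of 8 of the lipid class (-0.10) and 5 of 6 membrane proteins (-0.23). Besides those named, Gusb and Lipa, the acid lipase, had dKO libraries wholly below ctl, with log2 fold changes of -0.29 and -0.35, as did Ctsl. Gaa was the most positive, at 0.38 on the log2 scale (adjusted p = 0.602), with overlapping groups. Ctss and Cd68 had log2 fold changes of -0.76 and -0.71 with standard errors of 0.52 and 0.54. Ctss had 5252, 1039 and 2612 counts in ctl and 1129, 2559 and 1553 in dKO neurons, so that 1 ctl library was far above the rest. Without that library, ctl 1, the value of Ctss was -0.06 and that of Cd68 turned to 0.14.

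**Figure D5:**
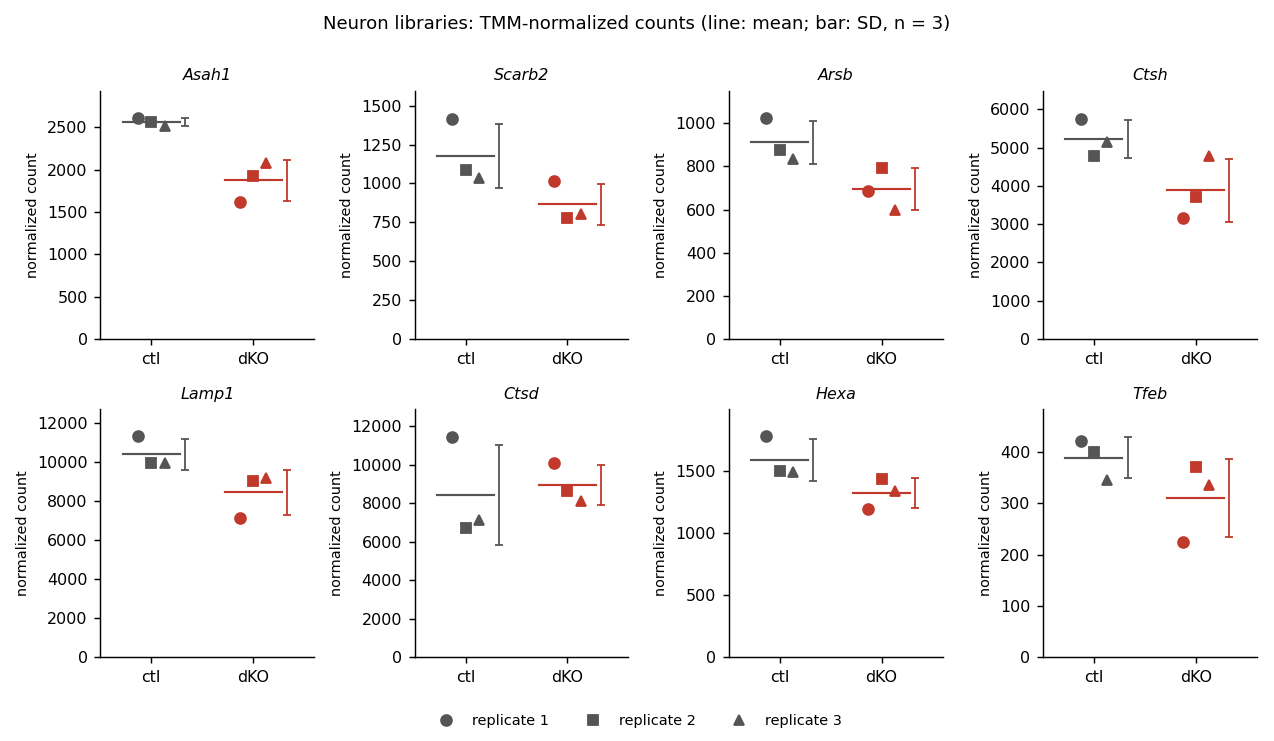
TMM-normalized counts of 8 members in the single neuron libraries (points; shape gives the replicate number, the line the mean and the bar the SD, n = 3; vertical axes start at 0). Asah1 has 2519 to 2610 counts in ctl and 1613 to 2079 in dKO libraries, and for Lamp1, Tfeb and Hexa the dKO 1 library is the lowest.

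Single libraries weighed on the neuronal counts. Without ctl 1, 24 members were lower by sign (58.5%, against 48.2% of all genes) and 1 had an unadjusted p under 0.05 with a lower level (2.44%, against 2.14%). Without dKO 1 the numbers were 32 (78.0%, against 50.3%) and 2 (4.88%, against 4.35%), and without dKO 2 they were 31 (75.6%, against 50.7%) and 2 (4.88%, against 5.02%). The median log2 fold change of the members ran from -0.22 to -0.06 with each library left out. Microglia markers summed to 1501, 304 and 708 CPM in ctl and 278, 830 and 446 in dKO neurons, and all 13 were lower in dKO, 0 of them at an unadjusted p under 0.05. Endothelial markers summed to 15383 to 18083 CPM in ctl and to 7732, 14108 and 13996 in dKO, and all 10 were lower by sign (median log2 fold change -0.39), 3 of them at an unadjusted p under 0.05. The dKO 1 library was lowest, as for Lamp1, Tfeb, Hexa and Asah1. For other members, among them Ctsd, Psap, Scarb2, Lamp2 and Gaa, dKO 1 was the highest of the dKO libraries. Markers of the choroid plexus and ependyma were at 4875 to 9255 CPM in ctl and 8535 to 30217 in dKO, with all 3 tested higher by sign and 2 at an unadjusted p under 0.05. Astrocyte markers ran from 405 to 1113 CPM in ctl and 300 to 594 in dKO, with 6 of 8 lower by sign and 2 at an unadjusted p under 0.05. By sign, 9 of 9 oligodendrocyte markers (median log2 fold change -0.98), 6 of 9 OPC markers (-0.61) and 5 of 5 border macrophage markers (-0.90) were lower, and 10 of 12 neuron markers (0.53) and 4 of 6 mural markers (0.02) were higher. At an unadjusted p under 0.05 these lists held 1 lower oligodendrocyte, 1 lower OPC, 0 border macrophage, 1 higher neuron and 0 mural markers. The part of these cells in the levels of the members was not tested.

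Sites with CACGTG can be read against these fold changes as a description. In OPCs, the 14 members with CACGTG in the window had a median log2 fold change of 0.00 (7 higher, 7 lower), and the 24 members with a window that lacks it 0.06 (16 higher, 8 lower). In neurons the medians were -0.10 (4 higher, 10 lower) and -0.22 (3 higher, 21 lower). An unadjusted p under 0.05 was found in OPCs for 1 of the 14 (Mcoln1) and 5 of the 24 members, and in neurons for 0 of the 14 and 2 of the 24, while the other 2 such members in neurons, Ctsh and Asah1, have no window.

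Other genes of the lysosome were read from lists written by hand. Their counts at an unadjusted p under 0.05 stand against 11.5% of all genes in OPCs and 9.00% in neurons. Of 18 subunits of the proton pump that acidifies the lumen, 0 had an unadjusted p under 0.05 in either cell type. By sign, 9 were higher in dKO OPCs and 16 in dKO neurons, where 51.1% of all genes were higher (median log2 fold change 0.14). Their summed level in neurons was 2834 to 2938 CPM in ctl and 3681, 2700 and 3152 in dKO, so that dKO 2 lay below every ctl library. Without dKO 1, 9 of the 18 were higher and the median was -0.01. The smallest p belonged to Atp6v1g2 in OPCs (log2 fold change 0.42) and to Atp6v0d1 in neurons (0.33). Of 18 genes for mannose 6-phosphate tagging and sorting, 1 was higher and 1 lower in OPCs at this threshold, led by Gnptab, the enzyme that adds the tag, at -0.29 (adjusted p = 0.427); the other was Vps26a (0.21). In neurons 1 was lower, M6pr, the cation-dependent receptor for the tag, at -0.47 (adjusted p = 0.521).

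For lysosome transport and exocytosis, 0 of 21 genes tested in OPCs and 1 of 23 in neurons had an unadjusted p under 0.05. The smallest p was that of Rab27b in OPCs (log2 fold change 0.78) and of Arl8a, a GTPase that couples lysosomes to kinesin, in neurons (0.37, adjusted p = 0.531). Of 23 genes for control by mTORC1 and TFEB, 3 were lower in OPCs, Tsc1 (-0.39, adjusted p = 0.313), Flcn (-0.30) and Fnip1 (-0.25). In neurons Rragd, a GTPase of the mTORC1 pathway, was higher (0.56, adjusted p = 0.548).

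Of 19 other soluble lysosomal proteins, 15 were higher by sign in OPCs (50.8% of all genes were). Without ctl 3 in OPCs, 12 were higher (49.8% of all genes). In neurons 1 was lower at the threshold (Ctso, -0.35) and 15 were lower by sign (median log2 fold change -0.21), against 48.9% of all genes. Without ctl 1 in neurons, 12 of these 19 were lower and the median was -0.06. Of 23 other membrane proteins, 3 were higher and 1 lower in OPCs, led by the transporter Mfsd1 (0.44, adjusted p = 0.255), with Laptm5 (1.13), which immune cells express, Laptm4a (0.33) and Sidt2 (-0.29). Vps26a, Flcn, Fnip1, Laptm5, Laptm4a and Sidt2 are named after their values were seen. In neurons 1 was lower, Hgsnat, which acetylates heparan sulfate at the membrane (-0.39, adjusted p = 0.521), and 20 were lower by sign (against 48.9% of all genes). No gene of these lists had an adjusted p under 0.05 by edgeR in either cell type.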

How the data were processed

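RNA was sequenced from 12 libraries (TruSeq v2, which does not mark strand). The OPC table that the authors deposited holds FPKM and unnormalized counts of reads per gene, made with HISAT2 and featureCounts per their methods. For neurons, they deposited estimated counts and TPM per transcript; the program is not given in the sources used here. The methods name build GRCm38 and the submitters' processing notes mm39. The authors' own fold changes, p-values and normalized counts were not used.

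Estimated counts were summed per gene and rounded; 17794 of 17918 genes matched a symbol, and genes without one held 0.0441% of counts. Within a cell type, genes averaging 10 or more TMM-normalized counts were tested, dKO against ctl, by the quasi-likelihood test of edgeR (version 4.0.16 under R 4.3.3), with p adjusted by Benjamini-Hochberg over all genes tested. DESeq2 1.42.0, limma-voom (limma 3.58.1), RLE and upper-quartile normalization, no filter or a minimum of 50, the replicate block and each library left out were alternatives. The test was tried on simulated data. Values per library are given for members with an unadjusted p under 0.05, Lamp1, Ctsd, Tfeb and the highest member of each class; others named are examples, and pathway lists give the gene with the smallest p, of which 1 is not reported here. The members and lists were chosen with earlier results of these data known. The spans of 17 members overlap another gene of the OPC table, 12 of them a tested one, so reads cannot be told apart there.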

Additional observations from a re-analysis of the deposited data

Results flagged for a closer look

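For 2 members every dKO library lay above every ctl library in OPCs and below every ctl library in neurons (4.88%, against 0.799% of the 13398 symbols tested in both). These were Ctsl, with a log2 fold change of 0.24 in OPCs and -0.21 in neurons, and Hexa, with 0.34 in OPCs and -0.26 in neurons. Several lists of markers of other cells moved by sign in the same opposite ways, and other lists did not. Of the microglia markers, 13 of 13 were higher in dKO OPCs (median log2 fold change 1.32) and 13 of 13 lower in dKO neurons (-0.71), as were 10 of 10 endothelial markers (0.29 and -0.39) and 5 of 5 border macrophage markers (0.79 and -0.90). Of the astrocyte markers, 8 of 8 were higher in OPCs (1.09) and 6 of 8 lower in neurons (-0.40). In neurons, 0 of the 13 microglia markers had an unadjusted p under 0.05 by edgeR. Their sum was 1501 CPM in ctl 1 and 278 to 830 in the other neuron libraries. OPC markers were mostly higher in OPCs (0.36) and lower in neurons (-0.61). Neuron (0.37 and 0.53) and mural markers (0.39 and 0.02) were mostly higher in both. Oligodendrocyte markers were mostly lower in both (-0.43 and -0.98). Markers of ependyma and choroid plexus were split in OPCs and higher in neurons. The part of these cells in the levels of Ctsl and Hexa was not tested. The difference between the cell types was not tested, since the tables were counted and normalized separately.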

How the results depend on the processing

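The count of members with an adjusted p under 0.05 in OPCs was 0 by edgeR and by limma-voom (1 of all genes in each). It was 2 with DESeq2 (293 of all genes) and 2 without the filter on low counts (87 of all genes). With 1 library left out it was 0 to 3 (1 to 199 of all genes). With the replicate block it was 1 (Ctss, at the edge of the threshold, and 27 of all genes), and the block gave no other change beyond 1.5 times in a count of members. No source ties the replicate numbers to a shared origin, and same-numbered libraries had correlations of their deviations of -0.11, 0.15 and 0.11 in OPCs and 0.17, -0.08 and -0.08 in neurons. Members at an unadjusted p under 0.05 numbered 2 to 9 higher (3.61% to 8.08% of all genes) and 1 to 2 lower (2.73% to 5.21%) in OPCs, and 0 to 1 higher (3.30% to 6.01%) and 1 to 4 lower (2.14% to 5.02%) in neurons, with 1 library left out. In OPCs, 2 were lower with a minimum count of 50. Groups without overlap, which are more frequent with 5 libraries for any gene, numbered 5 to 18 above (10.1% to 15.3% of all genes) and 1 to 5 below (13.1% to 15.5%) in OPCs, and 0 to 5 above (11.2% to 15.1%) and 9 to 13 below (11.6% to 14.4%) in neurons. By sign, 20 to 29 members were higher and 12 to 21 lower in OPCs, and 5 to 17 higher and 24 to 36 lower in neurons. The median log2 fold change was -0.00 to 0.09 in OPCs and -0.22 to -0.06 in neurons. With 1 library left out, the sign turned for 15 of the 41 members in OPCs and 21 in neurons, 0 of them at an unadjusted p under 0.05 with all libraries. Among members given by library these were Ids in OPCs (0.013 without the filter, -0.072 to 0.090 with 1 library left out), Psap in OPCs (-0.022 to 0.16), and Ctsd in neurons (-0.052 to 0.37). Others moved without a turn of sign. Among them in OPCs were Lamp1 (-0.22 to -0.017), Ctsd (0.13 to 0.42) and Gaa (0.080 to 0.34). In neurons they included Tfeb (-0.47 to -0.14) and Psap (0.057 to 0.20). Leaving out libraries was extended to the pathway lists after the data were seen, and the count of genes higher by sign moved beyond 1.5 times in neurons only: for the proton pump from 16 to 9 of 18 without dKO 1, for mannose 6-phosphate sorting from 9 to 5 of 18 without dKO 3, for other soluble proteins from 4 to 7 of 19 without ctl 1, and for other membrane proteins from 3 to 6 of 23 without ctl 1 and 5 without ctl 2 or dKO 2. With 1 library left out, the counts of these lists at an unadjusted p under 0.05 (edgeR) moved too. In OPCs they were 0 to 1 for the proton pump, 0 to 1 for mannose 6-phosphate sorting and 0 to 3 for transport and exocytosis. They were 1 to 4 for mTORC1 and TFEB control, 1 to 4 for other soluble and 2 to 5 for other membrane proteins (1106 to 2292 of all genes). In neurons the lists, in this order, had 0 to 2, 0 to 2, 0 to 3, 0 to 1, 0 to 3 and 0 to 3 (780 to 1581 of all genes). The cause of these changes was not tested.

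The order of the members by level per length or by counts scaled to library size alone shared 9 of the top 10 in OPCs and 10 in neurons. With 3 libraries per group, a fold change of the size of the standard errors given cannot be told from 0.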
